A study of Rattus norvegicus with 10 samples.

Results

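The NRF2-linked antioxidant response was followed through 10 genes across sham, MCAO and MCAO+NRG1 cortex: Nfe2l2, which encodes the transcription factor NRF2, and Hmox1, Nqo1, Gclc, Gclm, Slc7a11, Srxn1, Txnrd1, Sod1 and Sod2. They were taken by symbol from the array's annotation, as 10 of the 18511 probe sets that list a single gene symbol, and each gene had 1 such probe set. All animals were adult male Sprague-Dawley rats, and left cortical tissue was taken 3 hours after surgery, with 1 Affymetrix Rat Gene 2.0 ST array per animal. The MCAO animals (n = 3) had a permanent filament occlusion of the left middle cerebral artery and received vehicle, bovine serum albumin in phosphate-buffered saline. The MCAO+NRG1 animals (n = 3) had the same occlusion and received neuregulin-1 (NRG1), a growth factor that signals through ErbB receptors, immediately before it. Sham animals (n = 4) went through the surgery without a filament in the internal carotid artery. The occlusion was permanent, so no group was reperfused. The tissue was left cortex isolated from coronal sections, which the study regards as ischemic penumbra at this time. Its methods describe no separate dissection of core and penumbra for the arrays.

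NRF2 is held in the cytoplasm and marked for degradation by KEAP1, which joins it to the CUL3 ubiquitin ligase. Oxidants and electrophiles modify KEAP1, NRF2 then builds up in the nucleus, pairs with small MAF proteins and binds the antioxidant response element in the promoters of its targets. The targets make glutathione, reduce thioredoxin, break down haem and detoxify quinones, and in brain much of this programme runs in astrocytes. Superoxide dismutases act upstream of these systems by turning superoxide into hydrogen peroxide, and Sod2 is also a known target of NF-κB.

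Promoter windows from RefSeq (assembly GRCr8, 250 bases before to 50 bases after each transcription start) were at hand for 9 of the 10 genes, all except Hmox1, and were searched on both strands for the core of the antioxidant response element, TGACNNNGC. The 9 genes had 10 windows. The motif was present in a window of 4 of the 9 genes, Gclm, Txnrd1, Sod2 and Nfe2l2, while the other window of Txnrd1 held no match. Over all genes it was in 4038 of 33469 windows (12.1%), a share of windows and not of genes. Those that lie before the start in Gclm, Txnrd1 and Sod2 are shown, since these 3 genes gave different array results below. Each is written 5′ to 3′ on the gene's strand with the motif in capitals, here as its reverse complement.
Gclm (plus strand, chr2:213031933-213032001, motif from position −172): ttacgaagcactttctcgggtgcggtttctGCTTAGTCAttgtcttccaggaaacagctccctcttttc
Txnrd1 (minus strand, chr7:22755944-22756012, motif from position −78): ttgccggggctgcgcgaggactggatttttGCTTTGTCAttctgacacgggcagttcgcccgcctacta
Sod2 (minus strand, chr1:50050169-50050233, motif from position −35): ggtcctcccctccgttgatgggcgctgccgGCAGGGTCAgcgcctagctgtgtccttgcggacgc
In Nfe2l2 the match TGACGCCGC began 38 bases after the start. A match is a description of these letters and was not tested for binding. Bases further than 250 before a start were not searched, so a window without a match does not mean that the gene lacks the element.

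Values are log2 levels that the study made with RMA, a method that corrects background, normalizes arrays and combines the probes of a probe set. Array medians over the single-symbol probe sets were 6.05 to 6.11 in sham, 5.80, 5.82 and 6.12 in MCAO, and 5.79 to 5.81 in MCAO+NRG1. MCAO replicate 3 thus stood apart from the other occluded arrays, and sham replicate 1 held the highest sham value for 7 of the 10 genes, against 33.5% of all probe sets. The median difference over all 18511 probe sets was −0.16 log2 for MCAO minus sham, −0.24 for MCAO+NRG1 minus sham and −0.08 for MCAO+NRG1 minus MCAO. Subtracting each array's median (median centring) raised these 3 differences by 0.16, 0.27 and 0.11. All 10 genes lay above 4.65 log2, the 95th percentile of olfactory and vomeronasal receptor probe sets, which was taken as the near-background level. Neuron markers averaged 10.99 to 11.34 log2 on every array, whereas endothelial markers averaged 7.04 to 7.22 in sham and 5.67 to 6.59 on the occluded arrays. In such bulk tissue, fewer cells of a type and less RNA per cell cannot be told apart. Differences were tested in 1 limma model with 3 groups and p-values adjusted by Benjamini-Hochberg over all 18511 probe sets, and a gene is called at an adjusted p under 0.05. Both occluded groups were compared with the same sham arrays.

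Sod2, the mitochondrial manganese superoxide dismutase, was the single gene of the 10 that was called. Against sham it rose by 0.62 ± 0.17 log2 (SE) under MCAO (limma adjusted p = 0.0395) and by 0.58 ± 0.17 under MCAO+NRG1 (adjusted p = 0.0288). No gene fell. Higher calls made up 1.1% of all probe sets in MCAO and 1.51% in MCAO+NRG1, and lower calls 5.61% and 15.8%. In the F test over the 3 groups, which called 11.5% of all probe sets, Sod2 was again the single member called (adjusted p = 0.0304). Between the occluded groups 0 of the 10 genes were called, and none had an unadjusted limma p under 0.05, whereas 0.0054% of all probe sets were called and 3.21% had such a p. The median difference of the 10 genes was 0.22 log2 in MCAO and 0.13 in MCAO+NRG1 against sham, beside −0.16 and −0.24 over all probe sets, and 6 of the 10 were positive in each, while 69.0% and 75.9% of all probe sets were negative. After median centring the medians were 0.38 and 0.40, with 8 and 10 of the 10 positive, and 50.7% and 46.6% of all probe sets were then negative.

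**Figure D1:**
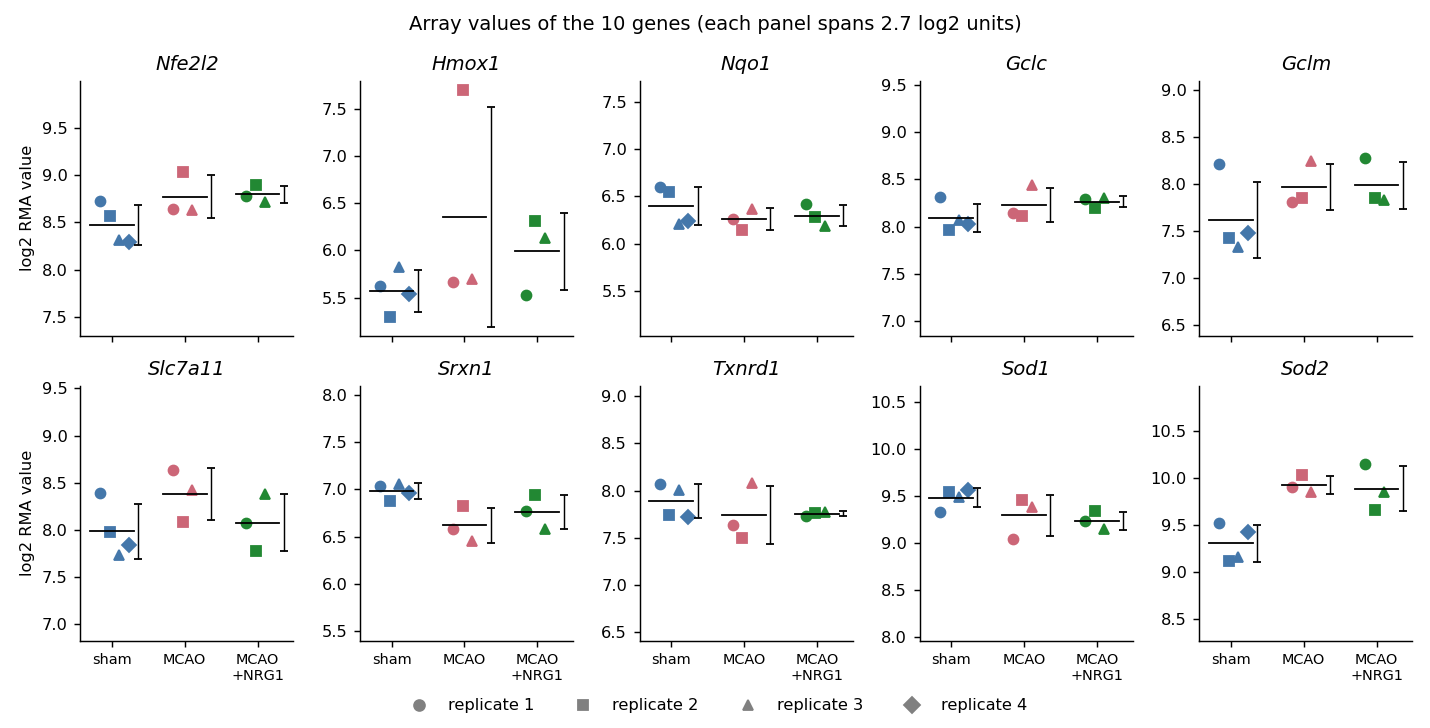
Log2 RMA values of the 10 genes on each array (vertical axes, each spanning the same log2 range) in sham, MCAO and MCAO+NRG1, with symbols for replicate numbers, a line at each group mean and a bar of ± 1 SD beside it. Sod2 is the gene whose 3 MCAO and 3 MCAO+NRG1 values all sit above the 4 sham values, while the MCAO mean of Hmox1 rests on 1 array at 7.71.

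Nfe2l2, the gene for NRF2 itself, read 8.72, 8.57, 8.31 and 8.29 on sham arrays 1 to 4. The MCAO values were 8.65, 9.04 and 8.64 and the MCAO+NRG1 values 8.78, 8.89 and 8.72. Sham replicate 1 lay above 2 of the MCAO arrays, so the groups overlapped. The difference was 0.30 ± 0.17 log2 in MCAO (95% interval −0.05 to 0.65, adjusted p = 0.236) and 0.33 ± 0.17 in MCAO+NRG1 (−0.03 to 0.68, adjusted p = 0.167), so neither passed. After median centring the MCAO+NRG1 arrays all lay above sham, as did those of 13.0% of all probe sets, with a difference of 0.59 (adjusted p = 0.0576).

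Hmox1 encodes haem oxygenase 1, the inducible enzyme that opens the haem ring. Its MCAO values were 5.67, 7.71 and 5.69, against 5.62, 5.29, 5.83 and 5.54 in sham. MCAO replicate 2 stood far above the others of its group, which lay inside the sham range. The mean difference was 0.79 ± 0.37 log2 (unadjusted p = 0.0493, adjusted p = 0.17), and it came to 0.11 without that array (adjusted p = 0.788). Under MCAO+NRG1 the values were 5.52, 6.31 and 6.13, of which 2 lay above every sham array and 1 did not (difference 0.42 ± 0.37, adjusted p = 0.425).

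Macrophages are among the cells known to express Hmox1. The 9 microglia and macrophage markers, 7 of them above the near-background level, averaged 6.09 log2 on MCAO replicate 2, the lowest of all 10 arrays, against 6.12 and 6.72 on the other MCAO arrays and 6.56 to 6.72 in sham. The 6 neutrophil markers, of which 1 lay above the near-background level, averaged 4.01 there, inside the sham range of 3.73 to 4.19. The part of such cells in the Hmox1 value was not tested. Genes whose array values followed Hmox1 most closely were Hbegf, which encodes a heparin-binding growth factor, Adamts9, a secreted metalloprotease, and Gpat3, an enzyme of glycerolipid synthesis. Likeness was measured as the mean absolute difference between their deviations from their own means over the 10 arrays, among 12560 genes above the near-background level, and came to 0.13, 0.24 and 0.26 log2. Hbegf had its own highest value on the same array, at 7.52, with 5.98 and 5.98 on the other MCAO arrays. For Nfe2l2 the closest genes were Spef1 (0.08 log2), Wdr45b (0.09) and Gmds (0.09).

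Sod2 values were 9.52, 9.11, 9.16 and 9.42 in sham, 9.90, 10.03 and 9.85 in MCAO, and 10.14, 9.66 and 9.85 under MCAO+NRG1. Every occluded array was above every sham array. Higher values without overlap were found in 2.74% of all probe sets for MCAO and in 2.17% for MCAO+NRG1. The 95% interval of the rise was 0.27 to 0.97 log2 in MCAO, and the difference was above those of 97.8% of all probe sets. The direction held in every alternative run, with 0.56 to 0.78 log2 in MCAO and 0.45 to 0.85 in MCAO+NRG1. The call was lost in many of these runs, and in MCAO in most of those that left out 1 array. Without sham replicate 1 the rise was 0.69 in MCAO (adjusted p = 0.0164) and 0.65 in MCAO+NRG1 (adjusted p = 0.0145), and without MCAO replicate 3 it was 0.66 in MCAO (adjusted p = 0.0251). Leaving out sham replicate 2 gave 0.56 with an adjusted p of 0.122 in MCAO, and leaving out MCAO+NRG1 replicate 1 gave 0.45 with an adjusted p of 0.131 in MCAO+NRG1.

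Sod1, the cytosolic copper-zinc superoxide dismutase, read 9.33, 9.54, 9.49 and 9.56 in sham, 9.05, 9.45 and 9.38 in MCAO, and 9.23, 9.34 and 9.15 under MCAO+NRG1. These arrays overlapped, and the differences from sham were −0.19 ± 0.15 log2 (adjusted p = 0.429) and −0.24 ± 0.15 (adjusted p = 0.259). After median centring they were −0.03 and 0.02. Within an array, where the overall level of the array cancels, Sod2 minus Sod1 was 0.81 ± 0.20 log2 (SD) above the sham mean in MCAO and 0.83 ± 0.30 above it in MCAO+NRG1. The occluded arrays ranged from 0.50 to 1.09 and the sham arrays from −0.25 to 0.37, with no overlap. This difference uses the same Sod2 values as the call above, so it is not separate evidence of a rise. How many other gene pairs separate in this way was not counted.

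Ccs, the copper chaperone that loads Sod1, differed from sham by −0.07 ± 0.16 log2 in MCAO. Cat, the peroxisomal catalase that removes hydrogen peroxide, differed by 0.28 ± 0.26, and neither passed. Sod3, the secreted superoxide dismutase, read 8.98, 8.73, 8.76 and 8.73 in sham and 8.30, 8.31 and 7.90 in MCAO+NRG1, where it fell by 0.63 log2 (adjusted p = 0.0355). The MCAO+NRG1 fall came to 0.37 after median centring, with an adjusted p of 0.161. In MCAO the Sod3 difference from sham was −0.37 ± 0.19 before centring (limma adjusted p = 0.202). Between the occluded groups it was −0.26, which was not called.

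**Figure D2:**
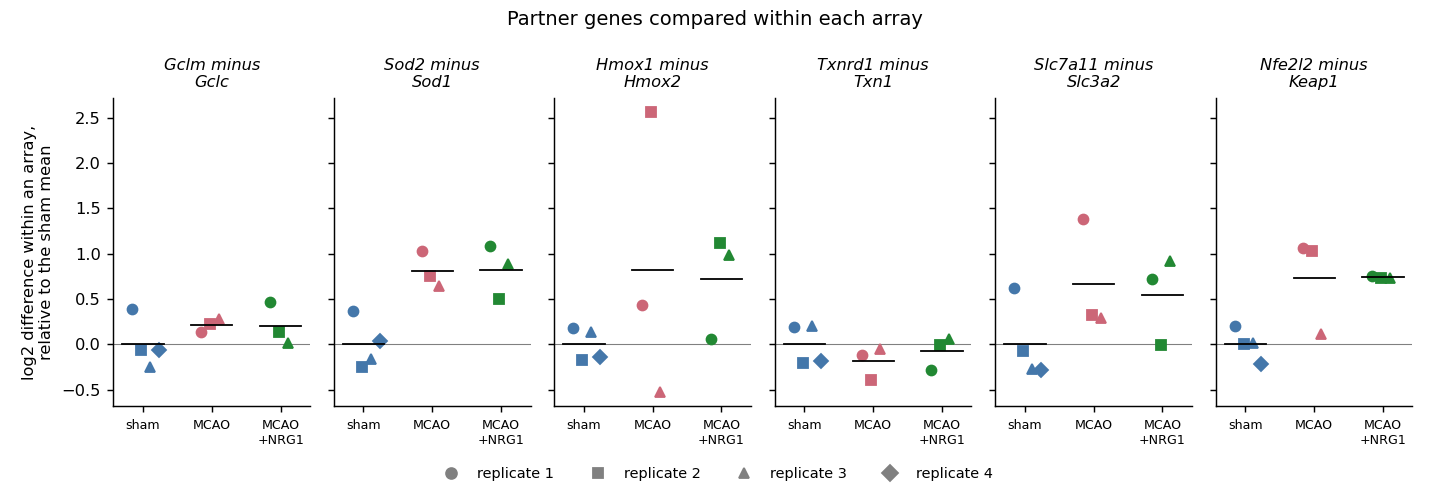
Log2 difference between 2 partner genes on the same array, relative to the mean of that difference in sham (vertical axis), for each array of sham, MCAO and MCAO+NRG1, with a line at each group mean. Sod2 minus Sod1 separates the occluded arrays from sham, whereas Gclm minus Gclc does not.

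Gclc and Gclm encode the catalytic and modifier subunits of glutamate-cysteine ligase, the rate-limiting enzyme of glutathione synthesis. Gclm read 8.21, 7.42, 7.34 and 7.48 in sham, 7.81, 7.85 and 8.24 in MCAO, and 8.27, 7.85 and 7.83 under MCAO+NRG1. Sham replicate 1 stood above 2 arrays of each occluded group, whereas the other 3 sham arrays lay below all 6 occluded arrays. The difference from sham was 0.35 ± 0.21 log2 in MCAO (adjusted p = 0.273) and 0.37 ± 0.21 in MCAO+NRG1 (adjusted p = 0.215). Without sham replicate 1 it was 0.55 (adjusted p = 0.0422) and 0.57 (adjusted p = 0.0299), both past the threshold. On that array the 8 astrocyte markers, none of them called in any comparison, averaged 10.69 log2, against 10.21 to 10.31 on the other sham arrays and 10.18 to 10.60 on the occluded arrays. Their part in the Gclm values was not tested.

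Gclc differed less, with 8.31, 7.97, 8.07 and 8.03 in sham, 8.15, 8.11 and 8.44 in MCAO, and 8.29, 8.20 and 8.30 under MCAO+NRG1. Its difference from sham was 0.14 ± 0.15 log2 (adjusted p = 0.562) and 0.17 ± 0.15 (adjusted p = 0.437). After median centring both occluded groups lay above sham without overlap, with differences of 0.30 (adjusted p = 0.16) and 0.43 (adjusted p = 0.0572), and 10.6% of all probe sets were so placed in MCAO. Relative to the sham mean, Gclm minus Gclc was 0.22 ± 0.07 log2 (SD) in MCAO and 0.20 ± 0.23 in MCAO+NRG1, with a sham range of −0.25 to 0.39 that held all 3 MCAO arrays and all but 1 MCAO+NRG1 array, at 0.46.

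Slc7a11 encodes xCT, the cystine-glutamate exchanger that supplies cystine for glutathione. It read 8.39, 7.98, 7.73 and 7.84 in sham, 8.63, 8.09 and 8.42 in MCAO, and 8.07, 7.78 and 8.38 under MCAO+NRG1. Sham replicate 1 again lay among the occluded arrays. The MCAO difference was 0.40 ± 0.20 log2 (95% interval −0.03 to 0.82, adjusted p = 0.196) and the MCAO+NRG1 difference 0.09 ± 0.20 (adjusted p = 0.764). After median centring they were 0.56 (95% interval 0.13 to 0.98, adjusted p = 0.114) and 0.36 (adjusted p = 0.274). With the heavy-chain partner Slc3a2 set against Slc7a11 on the same array, the value relative to sham was 0.67 ± 0.62 (SD) in MCAO and 0.55 ± 0.48 in MCAO+NRG1, overlapping the sham arrays.

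Srxn1 and Txnrd1 keep the peroxiredoxin and thioredoxin cycles running. Srxn1, sulfiredoxin, which restores overoxidized peroxiredoxins, read 7.03, 6.88, 7.06 and 6.97 in sham and 6.59, 6.82 and 6.45 in MCAO. The MCAO arrays were all lower, as in 17.8% of all probe sets, and the difference was −0.36 ± 0.15 log2 (unadjusted p = 0.0316, adjusted p = 0.136). Median centring brought the arrays into overlap and the difference to −0.20 (adjusted p = 0.454). Its MCAO+NRG1 values of 6.78, 6.94 and 6.58 overlapped both other groups.

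Txnrd1, the cytosolic thioredoxin reductase, read 8.07, 7.74, 8.01 and 7.72 in sham, 7.63, 7.50 and 8.08 in MCAO, and 7.73, 7.76 and 7.78 under MCAO+NRG1. Its differences from sham were −0.15 ± 0.17 log2 (adjusted p = 0.587) and −0.13 ± 0.17 (adjusted p = 0.598), and after median centring 0.01 and 0.13. Set against Txn1, the thioredoxin it reduces, it changed by −0.19 ± 0.18 (SD) in MCAO and −0.07 ± 0.18 in MCAO+NRG1 relative to sham.

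Nqo1 encodes a reductase that takes quinones directly to hydroquinones. Values of 6.61, 6.54, 6.21 and 6.23 in sham, 6.26, 6.14 and 6.37 in MCAO, and 6.41, 6.29 and 6.19 under MCAO+NRG1 overlapped throughout. The differences from sham were −0.14 ± 0.16 log2 (adjusted p = 0.572) and −0.10 ± 0.16 (adjusted p = 0.663), and median centring turned them to 0.02 and 0.16.

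**Figure D3:**
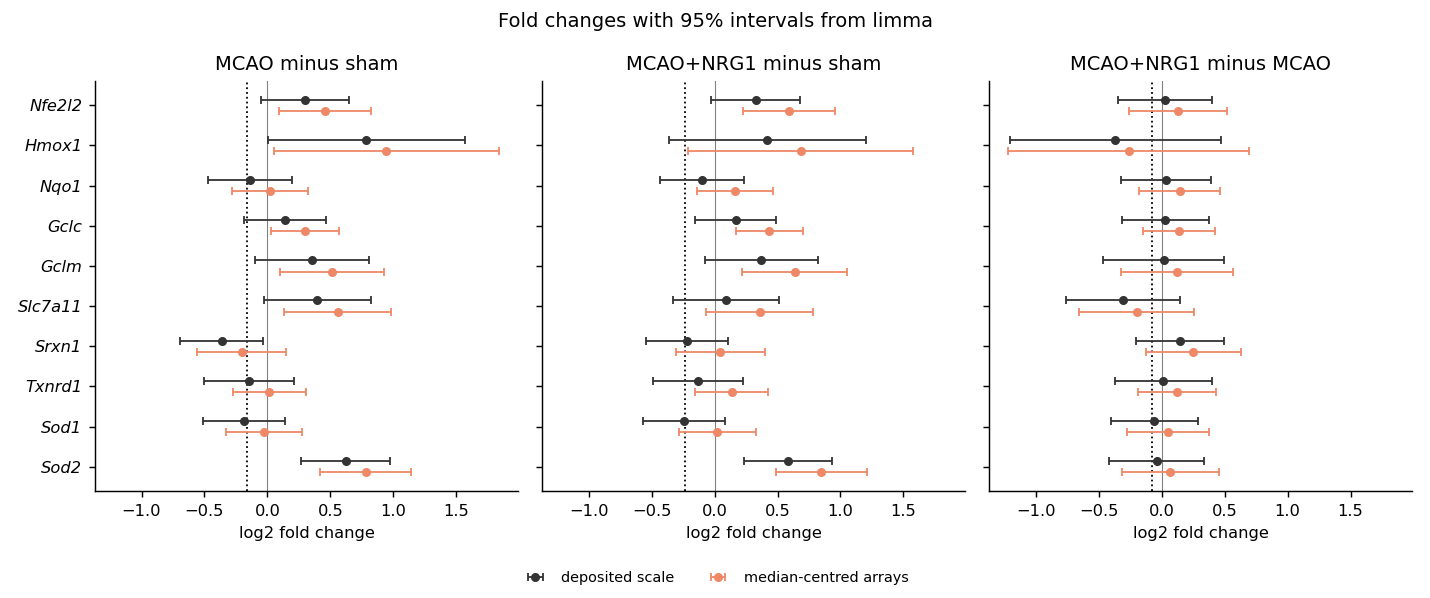
Log2 fold changes of the 10 genes (points) with their 95% limma intervals (bars) for the 3 comparisons, on the deposited scale and after median centring, with a dotted line at the median over all 18511 probe sets on the deposited scale. The Sod2 intervals lie above 0 in both comparisons with sham on both scales, and those of Gclc, Gclm and Nfe2l2 after centring alone. In MCAO minus sham the Hmox1 interval lies just above 0 on both scales and that of Slc7a11 above 0 after centring alone. That of Srxn1 lies below 0 there on the deposited scale alone. Every interval for MCAO+NRG1 minus MCAO spans 0.

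MCAO+NRG1 was then compared with MCAO directly. The 10 differences ran from −0.37 to 0.14 log2, with an adjusted p of 0.999 for each, and the arrays of the 2 groups overlapped for all 10 genes, while 5.74% of all probe sets had no overlap. The difference was −0.04 log2 for Sod2 (95% interval −0.41 to 0.34), 0.03 for Nfe2l2 (−0.35 to 0.40), 0.02 for Gclm (−0.46 to 0.50) and 0.03 for Gclc (−0.32 to 0.38). It was 0.04 for Nqo1 (−0.32 to 0.39), 0.01 for Txnrd1 (−0.37 to 0.40) and −0.06 for Sod1 (−0.40 to 0.29). Srxn1 stood at 0.14 (−0.21 to 0.49) and Slc7a11 at −0.31 (−0.76 to 0.15). Hmox1 had the widest interval, −1.20 to 0.47 around −0.37, and without MCAO replicate 2 its difference was 0.31. These intervals leave room for a difference of 0.29 log2 or more in either direction for 8 of the 10 genes, the exceptions being Slc7a11 and Srxn1 on 1 side. After median centring, Gclc was higher in MCAO+NRG1 without overlap, as were 4.41% of all probe sets.

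The wider pathway was read from 71 other genes in 7 groups by role, of which 67 were measured and 63 lay above the near-background level. In MCAO against sham none of the 67 was called in limma, and 5 were higher and 10 lower at an unadjusted p under 0.05, a threshold that 29.0% of all probe sets passed. In MCAO+NRG1 against sham 6 were called lower and none higher, beside 15.8% of all probe sets lower and 1.51% higher. All 6 lost the call after median centring. Between the occluded groups none was called and none had an unadjusted p under 0.05, against 3.21% of all probe sets. The median difference was −0.10 log2 in MCAO and −0.18 in MCAO+NRG1 against sham, near −0.16 and −0.24 over all probe sets, and after centring 0.06 and 0.08.

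**Figure D4:**
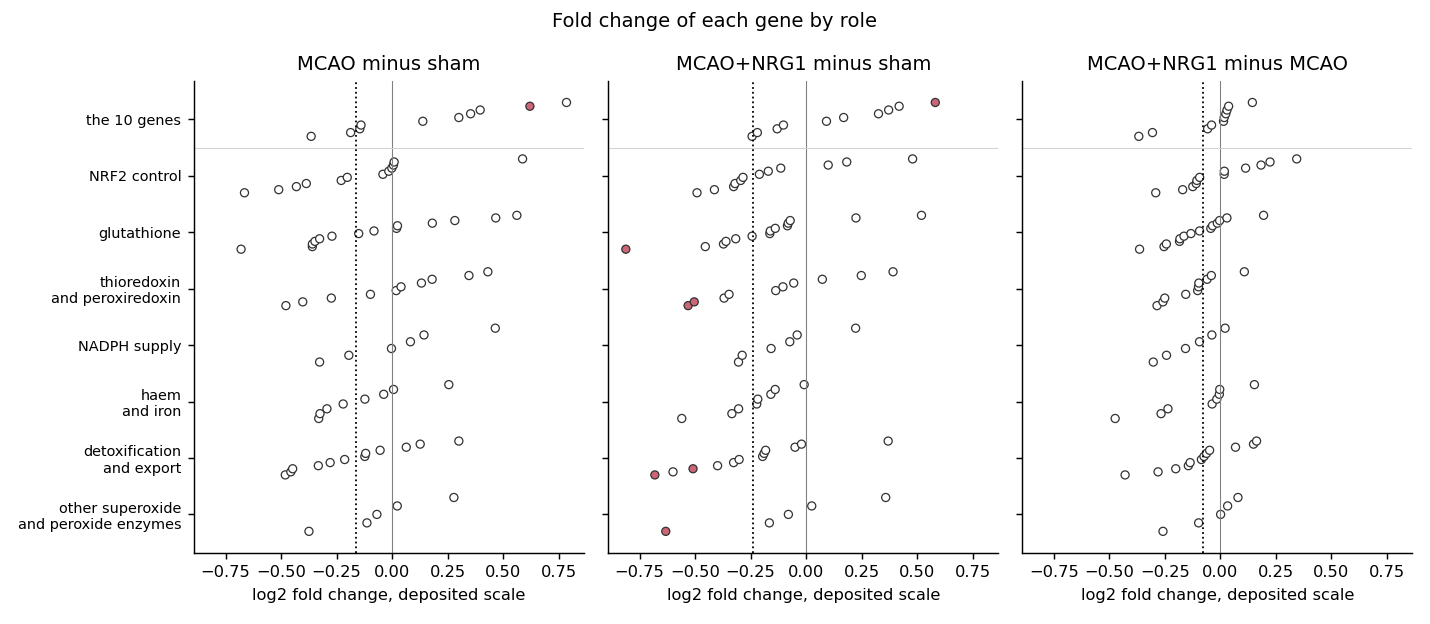
Log2 fold changes on the deposited scale (horizontal axis) of the 10 genes and of the 67 other pathway genes by role, 1 point per gene, spread vertically by rank within a group, for the 3 comparisons. Filled points passed an adjusted p under 0.05, and the dotted line is the median over all probe sets. The filled points are Sod2 on the right and the 6 lower genes of MCAO+NRG1 minus sham on the left.

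Among the genes that control NRF2, 0 of 12 were called. Cul3, the ligase scaffold that works with KEAP1, read 10.17, 9.86, 9.62 and 9.58 in sham and 10.49, 10.24 and 10.46 in MCAO, a difference of 0.59 ± 0.19 log2 (adjusted p = 0.0668). It was called after median centring in MCAO (0.75, adjusted p = 0.0473) and in MCAO+NRG1 (0.74, adjusted p = 0.0378). On that scale 407 and 707 of the 18511 probe sets were called higher in these comparisons. Sqstm1, the autophagy adaptor p62 that can sequester KEAP1, differed by −0.51 ± 0.15 in MCAO (adjusted p = 0.0557). Keap1 itself read 8.38, 8.43, 8.16 and 8.37 in sham, 7.45, 7.87 and 8.39 in MCAO, and 7.89, 8.02 and 7.85 under MCAO+NRG1. MCAO replicate 3 was within the sham range, and the other 5 occluded arrays were below it. Keap1 differed from sham by −0.43 ± 0.19 log2 in MCAO (limma adjusted p = 0.15) and −0.41 ± 0.19 in MCAO+NRG1 (adjusted p = 0.132), so neither passed. After median centring these differences were −0.27 (adjusted p = 0.293) and −0.15 (adjusted p = 0.578). Nfe2l2 minus Keap1 was 0.73 ± 0.54 (SD) above the sham mean in MCAO and 0.74 ± 0.01 in MCAO+NRG1, beside −0.22 to 0.20 on the sham arrays. The MCAO arrays read 1.06, 1.02 and 0.11, so that replicate 3 lay inside the sham range, and the MCAO+NRG1 arrays 0.75, 0.74 and 0.73. Neither Nfe2l2 nor Keap1 was called, and how many other gene pairs separate in this way was not counted.

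Of 14 further glutathione genes, Gpx3, the secreted glutathione peroxidase, was called. It read 7.28, 7.04, 7.47 and 6.91 in sham, 6.61, 6.04 and 6.83 in MCAO, and 6.16, 6.53 and 6.41 under MCAO+NRG1, and every occluded array was below sham, as in 17.8% of all probe sets for MCAO and 34.2% for MCAO+NRG1. Gpx3 fell by 0.81 log2 in MCAO+NRG1 (SE 0.20, adjusted p = 0.0162), while its difference of −0.68 ± 0.20 in MCAO had an adjusted p of 0.0508. Gsr, which reduces oxidized glutathione, differed by −0.33 ± 0.16 and −0.36 ± 0.16, and neither passed. Gsta4, a glutathione transferase that conjugates the lipid peroxidation product hydroxynonenal, differed by 0.56 ± 0.24 in MCAO (adjusted p = 0.136), with a mean under the near-background level.

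Of 10 thioredoxin and peroxiredoxin genes, 2 were called in MCAO+NRG1 against sham. Txnrd2, the mitochondrial thioredoxin reductase, fell by 0.50 log2 (adjusted p = 0.0362) and Prdx5, a peroxiredoxin of mitochondria and peroxisomes, by 0.53 (adjusted p = 0.0487). In MCAO they differed from sham by −0.40 (limma adjusted p = 0.102) and −0.27 (adjusted p = 0.308). Between the occluded groups the differences were −0.10 and −0.26, and neither was called. Prdx4, the peroxiredoxin of the endoplasmic reticulum, read 5.34, 5.19, 5.42 and 5.35 in sham, 5.56, 5.80 and 5.91 in MCAO, and 5.57, 6.03 and 5.56 under MCAO+NRG1. All its occluded arrays were above sham, as in 2.74% of all probe sets for MCAO and 2.17% for MCAO+NRG1. The differences were 0.43 ± 0.16 (adjusted p = 0.102) and 0.39 ± 0.16 (adjusted p = 0.102). After median centring Prdx4 was called in both, at 0.59 (adjusted p = 0.0473) and 0.66 (adjusted p = 0.0278). On that scale 407 and 707 of the 18511 probe sets were called higher. Txnip, the thioredoxin inhibitor, differed by −0.48 ± 0.16 in MCAO (adjusted p = 0.069).

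Among 12 genes of detoxification and export, Abcc4, an efflux pump, fell by 0.68 log2 in MCAO+NRG1 (adjusted p = 0.0268) and Osgin1, an NRF2-responsive growth inhibitor, by 0.51 (adjusted p = 0.0385). In MCAO they differed from sham by −0.48 (limma adjusted p = 0.113) and −0.45 (adjusted p = 0.0828). Between the occluded groups the differences were −0.20 and −0.06, and neither was called. Osgin1 lay at the near-background level, with a mean of 4.66 over all arrays, 4.94 in sham and 4.43 in MCAO+NRG1. After median centring its difference was −0.24 (adjusted p = 0.287). Ephx1, microsomal epoxide hydrolase, differed by −0.60 ± 0.22 in MCAO+NRG1 (adjusted p = 0.0633). Aldh3a1, an aldehyde dehydrogenase, had a mean under the near-background level. None of the 8 genes of haem and iron handling was called, and among them Blvra, the biliverdin reductase downstream of Hmox1, differed by −0.33 ± 0.15 in MCAO and Ftl1, ferritin light chain, by −0.32 ± 0.27. None of the 6 genes of NADPH supply was called either, with 0.46 ± 0.21 for Idh1, cytosolic isocitrate dehydrogenase, and −0.33 ± 0.17 for Tkt, transketolase.

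Markers of vessels and meninges were lower in both occluded groups than in sham. No endothelial or meningeal fibroblast marker had a positive difference from sham on the deposited scale. Of 7 endothelial markers 3 were called lower in MCAO and 6 in MCAO+NRG1 against sham, and of 8 meningeal fibroblast markers 4 and 6. Lower calls made up 5.61% and 15.8% of all probe sets. After median centring 1 and 2 endothelial and 1 and 4 meningeal fibroblast markers were called lower. The endothelial markers averaged 5.67, 6.26 and 6.51 log2 in MCAO+NRG1, and the meningeal fibroblast markers 5.66, 5.64 and 6.12 against 6.67 to 6.99 in sham. All but Lum lay above the near-background level. Mural cell markers were called lower for 1 and 3 of 5. Choroid plexus markers had median differences of −0.97 and −1.18 log2, with 0 and 4 of 6 called lower, and averaged 5.07 to 7.35 log2 among the sham arrays alone. Striatal neuron markers had a median difference of 0.48 in MCAO, with all 7 positive and 1 called higher, and −0.12 in MCAO+NRG1, with none called. The part of these markers in the values of the antioxidant genes was not tested.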

How the data were processed

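The 10 rat cortex arrays were grouped by sample title. Deposited log2 values of 36685 probe sets had been computed by the authors with the RMA algorithm of oligo (its version, and whether all arrays were normalized jointly, are not given in the sources used here). The platform annotation gave 1 symbol to 18511 probe sets, more than 1 to 575 and no symbol to 17599. All members had 1 probe set. The members, the other lists and the rule for named genes (called genes, and those of smallest F test p in each list) were chosen with earlier results of these data known. Slc3a2, Txn1 and Keap1 were named outside this rule, as partners set against a member on the same array.

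Group means were modelled by limma (version 3.58.1, with R 4.3.3 and default eBayes moderation), from which 3 contrasts and a moderated F test were taken, with Benjamini-Hochberg adjustment. The script was tested on simulated data with known changes. The number of arrays limits the precision, and p-values measure the spread between arrays, which the labels call biological replicates. Near background was the 95th percentile of 1360 receptor probe sets, and 68.1% of single-symbol probe sets lay above it. Alternatives were median centring, quantile normalization, other probe set filters and variance settings, 2-group fits, the replicate number as a block, and leaving out each array. Array positions of probe sets were not used here. Listed genes without a measured probe set were not analysed here.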

Additional observations from a re-analysis of the deposited data

Results flagged for a closer look

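Among 77 genes whose 4 sham arrays were compared, 5 had 1 sham array far from the other 3, by the gap to its nearest neighbour as a share of the whole range, and chance alone sets apart about 1 in 20 such groups. In all 5 the array was sham replicate 1. Gclm was highest there at 8.21 log2, with the next sham array at 7.48. Idh1 was also highest, at 8.98 against 8.26, as was Sod3, at 8.98 against 8.76. Gpx1 was lowest there at 6.97, with the next at 7.31, and Tkt at 9.12, with the next at 9.38. Sham replicate 1 was the highest sham array for 7 of the 10 members, against 33.5% of all probe sets. It was the lowest for 1 member, against 39.2% of all probe sets. This array thus often stood at an end of the sham range among all probe sets, which is not particular to the genes listed here.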

How the results depend on the processing

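Sod2 was the single member called in MCAO minus sham, in MCAO+NRG1 minus sham and in the F test. The number of members called fell to 0 in all 3 with all probe sets tested, with an ordinary variance and with the replicate number as a block, and to 0 in MCAO minus sham with only the 2 groups compared. Array weights raised it to 3, 2 and 4 (adding Hmox1 and Nfe2l2, then Gclm, then all of these), and an unadjusted p raised it to 3 in MCAO minus sham. Leaving out 1 array gave 0 to 2 in each, with 0 in MCAO minus sham without MCAO replicate 1 or 2, MCAO+NRG1 replicate 3, or sham replicate 2, 3 or 4, and 2 (Gclm and Sod2) without sham replicate 1. In MCAO+NRG1 minus sham it was 0 without MCAO+NRG1 replicate 1 or 3 or sham replicate 2, 3 or 4. MCAO+NRG1 minus MCAO gave 0 members in every alternative. The cause of these shifts was not tested.

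The main model did not use the replicate numbers as pairs. Deviations from the group means correlated at −0.19 to 0.22 for same-numbered arrays and at −0.35 to 0.29 for differently numbered arrays. Such values cannot show whether same-numbered animals were handled together. With the replicate block the Sod2 difference was 0.66 log2 (adjusted p = 0.0796) in MCAO and 0.62 (adjusted p = 0.053) in MCAO+NRG1, and the count over all probe sets in MCAO minus sham fell from 1241 to 232.

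Over all probe sets, MCAO minus sham gave 604 calls after median centring and 102 to 3583 on leaving out 1 array, and MCAO+NRG1 minus sham gave 3199, then 995, and 889 to 4936. Median centring turned Nqo1 to 0.020 and Txnrd1 to 0.014 in MCAO minus sham, Nqo1 to 0.16, Txnrd1 to 0.13, Sod1 to 0.022 and Srxn1 to 0.046 in MCAO+NRG1 minus sham, and Sod1 to 0.049 and Sod2 to 0.067 in MCAO+NRG1 minus MCAO. Quantile normalization turned Nqo1 to 0.12 and Txnrd1 to 0.019 against sham in MCAO+NRG1, and Sod1 to 0.030 and Sod2 to 0.052 between the occluded groups. Array weights turned Nfe2l2 between the occluded groups to −0.13. None of these values was called. Leaving out 1 array turned the sign of 8 members between the occluded groups, with ranges of −0.029 to 0.13 for Gclc, −0.13 to 0.16 for Gclm, −0.71 to 0.31 for Hmox1, −0.043 to 0.16 for Nfe2l2, −0.022 to 0.094 for Nqo1, −0.18 to 0.023 for Sod1, −0.17 to 0.072 for Sod2 and −0.11 to 0.19 for Txnrd1, and that of Slc7a11 in MCAO+NRG1 minus sham, from −0.061 to 0.24. No member had a further probe set to try. With 3 or 4 arrays a group, differences inside the intervals given above could not be told from 0.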
